A study of Rattus norvegicus with 6 samples.

Results

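The genes described here are the MYC and ID families and the MYC partner Max: Myc, Mycn, Mycl, Max, Id1, Id2, Id3 and Id4. Every chromatin accessible site (ACS) whose nearest gene is one of these 8 genes in the deposited annotation was taken, which gave 147 ACS of 101603 distinct ACS in all. The rule for taking ACS used no accessibility value, although the genes themselves were picked with earlier results of these data known. Myc was nearest to 53 ACS, Mycn to 22, Mycl to 5, Max to 9, Id1 to 7, Id2 to 22, Id3 to 6 and Id4 to 23. The nearest gene is not always the gene that an ACS acts on, so each ACS is named by its distance from the gene start.

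MYC proteins are transcription factors of the basic helix-loop-helix leucine zipper type that bind DNA as dimers with MAX and raise the transcription of genes for growth, ribosome production and cell division. ID proteins are helix-loop-helix proteins without a DNA-binding region. They bind E proteins and keep these from pairing with tissue-specific partners such as NEUROD1, and their genes are known targets of BMP and SMAD signalling. In the endocrine pancreas, MYC is known for driving beta cell proliferation, and ID genes are linked to the balance between growth and differentiation.

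Open chromatin was read by ATAC-seq, as the number of cuts that the enzyme Tn5 made at each site, in dissociated whole-islet cells of Sprague-Dawley rats. The Adult group held 3 libraries, 1 from each of 3 males of around 90 days (replicates 4, 5 and 6). The P10 group held 3 libraries (replicates 1, 2 and 3), made from small mixes of pups that came from 3 litters and were 10 days old, and the pups of the study were of both sexes. Neither group carried a transgene or a treatment. Age, sex and the use of single animals or litters changed together between the groups and cannot be told apart. Because whole islets were measured, fewer cells of a type and lower access in each cell cannot be told apart either.

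The adult libraries held 7916919 to 11903909 Tn5 integrations in ACS and the P10 libraries 13491534 to 21168463, so a P10 value rests on more counts than an adult value of the same height. Values are given as CPM, the integrations of an ACS scaled to a common total of integrations in ACS, after scaling by the trimmed mean of M values, and differences as log2 fold changes of Adult over P10, positive where adults were higher. CPM was not divided by the width of an ACS, so the most accessible ACS means the one with the highest mean CPM. An ACS was called Up or Down at an unadjusted p under 0.05 and an adjusted p under 0.2, the limits of the study, by the quasi-likelihood test of edgeR with Benjamini-Hochberg adjustment over all ACS. Scaling by total reads in place of integrations in ACS moved the median of all ACS by -0.83 on the log2 scale. The directions below are therefore relative to the bulk of ACS, and under that scaling 8 of the 21 Up ACS of these genes took a negative value. The 13 Down ACS stayed negative, but a downward shift could not have turned them, so this is no sign of greater stability. The promoters of 8 of 10 islet endocrine marker genes held an ACS, and those of 0 of 10 immune marker genes did. Such counts, here and below, go by the gene symbols of the deposited annotation, and 6899 of its 101941 listings had no symbol. A gene without a listed ACS, such as Chga or Ppy, is therefore not shown to be closed.

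Among the 147 ACS, 21 were Up and 13 were Down, that is 14.3% and 8.84%, against 12.3% Up and 6.63% Down among all ACS. The paper reports the opposite balance over all ACS at these limits, with more Down than Up. The cause of this difference was not tested. The Adult and P10 libraries did not overlap at 44 of the 147, against 24.7% of all ACS. As a whole, these genes therefore lay near the background in both directions. Differences between genes or distance classes were not tested, and their counts are given as a description. The 4 MYC and MAX genes had 12 Up and 4 Down of 89 ACS, and the 4 ID genes had 9 Up and 9 Down of 58. By the deposited annotation, 12 of the 147 ACS were of the TSS class, whose listed distance from the gene start is under 1000 bp, 12 were PROXIMAL, up to 10000 bp, and 123 were DISTAL. The listed distance need not be that of the midpoint. Of the TSS class, 3 were Down and 9 were not called. The share of TSS-class ACS called over all genes was 7.87% Down and 2.73% Up. Of the PROXIMAL ACS, 1 was Down, against 6.71% of that class. Of the DISTAL ACS, 21 were Up and 9 Down, against 13.8% and 6.45% of that class.

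**Figure D1:**
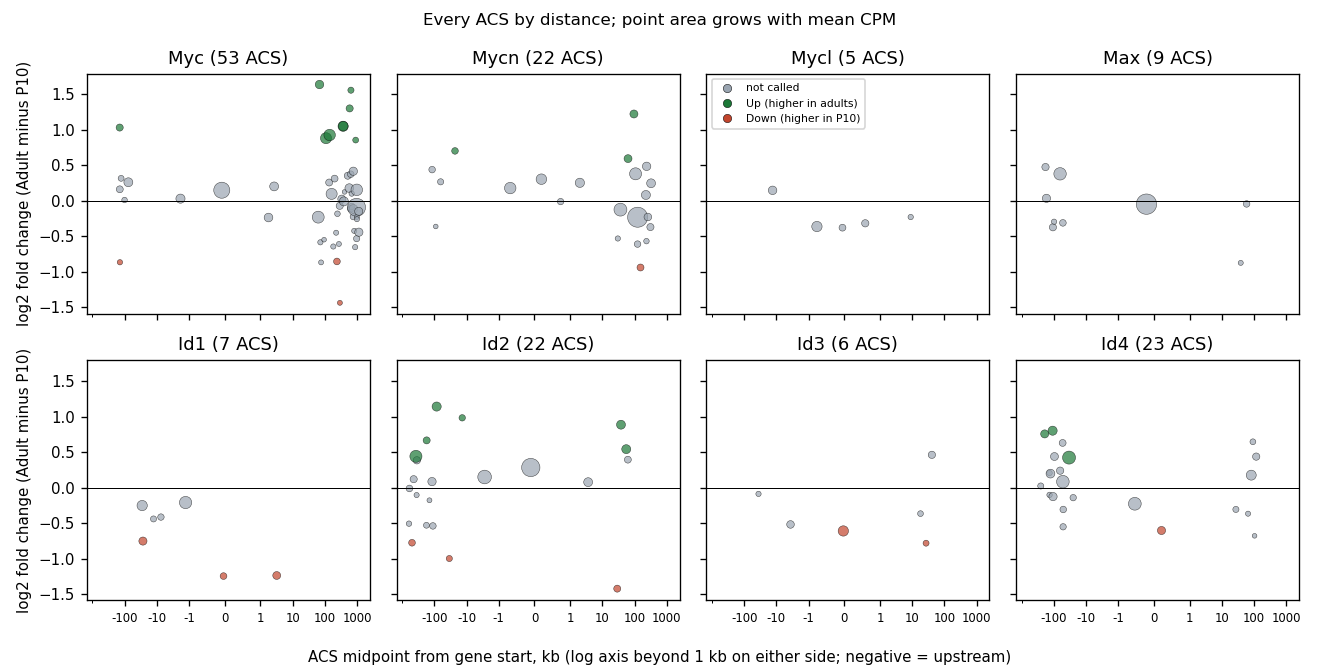
Log2 fold change (Adult minus P10) of each of the 147 ACS by the distance of its midpoint from the gene start in kb, 1 panel per gene; the distance axis is linear within 1 kb of the start and logarithmic beyond it, negative values are upstream, and point area grows with mean CPM. The 7 ACS of Id1 all lie below 0, with values from -1.25 to -0.21, whereas the 9 Up ACS of Myc lie 142 kb upstream or from 68.3 to 907 kb downstream.

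The promoter sequences are shown first because the 3 called promoters all belonged to ID genes. Promoter sequences came from RefSeq on the GRCr8 assembly, which is not the Rn5 assembly of the ACS, and 6 of the 8 genes had one. Each line gives the 150 bases before the gene start, 5′ to 3′ on the strand of the gene. Capitals mark CACGTG (the E-box bound by MYC and MAX dimers), GGCGCC (a GC-rich motif known from SMAD-bound ID promoters), TATAAA, or CCAAT, on either strand, and a CCAAT on the other strand reads ATTGG. The promoters of Id1 (chr3:161671414-161671563, plus strand), Id3 (chr5:153656141-153656290, plus strand) and Id4 (chr17:16598294-16598443, minus strand) belong to the genes whose start ACS fell in adults, and those of Id2 (chr6:47470996-47471145, minus strand) and Max (chr6:101395291-101395440, minus strand) are shown for contrast.
Id1: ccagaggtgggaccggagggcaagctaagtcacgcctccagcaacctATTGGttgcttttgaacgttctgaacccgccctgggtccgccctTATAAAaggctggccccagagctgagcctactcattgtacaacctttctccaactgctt
Id3: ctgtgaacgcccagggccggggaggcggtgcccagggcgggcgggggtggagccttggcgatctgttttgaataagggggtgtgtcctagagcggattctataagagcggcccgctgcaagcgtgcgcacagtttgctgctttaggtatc
Id4: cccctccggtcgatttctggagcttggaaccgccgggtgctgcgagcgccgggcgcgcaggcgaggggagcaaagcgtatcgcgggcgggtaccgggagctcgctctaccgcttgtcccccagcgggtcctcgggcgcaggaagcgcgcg
Id2: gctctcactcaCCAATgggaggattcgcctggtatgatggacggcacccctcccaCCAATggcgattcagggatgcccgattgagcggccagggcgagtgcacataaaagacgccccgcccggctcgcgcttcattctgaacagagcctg
Max: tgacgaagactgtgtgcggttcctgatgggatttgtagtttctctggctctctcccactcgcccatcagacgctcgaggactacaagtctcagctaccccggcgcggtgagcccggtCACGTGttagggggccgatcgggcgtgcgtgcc

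Only the Max promoter among the 6 held CACGTG, which starts 33 bases before the gene start. In windows of 300 bases (250 before and 50 after the start), 6.42% of 33469 rat promoters held this motif. The Id1 promoter held TATAAA, as did that of Mycl (sequence not shown) and 14.2% of all promoters. It also held CCAAT, as did 37.5% of all promoters. The Id2 promoter held 3 CCAAT matches, of which the farthest lies 178 bases before the start and outside the stretch shown. The Id4 promoter held GGCGCC after its start, 39 bases in, a motif found in 11.0% of promoters. The Id3 promoter held none of these 4 motifs in this window. The motif GGGCGG, which 33.1% of promoters held, occurred in the windows of all 4 ID genes and of Mycl, and not in that of Max. GC content of the 300 bases was 55.7% for Id1 and 58.0% for Id3. It was 65.0% for Id4, 65.3% for Id2, 63.0% for Max and 64.0% for Mycl, with a median of 51.7% over all promoters. A match describes these letters and is not evidence of binding.

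Id1 encodes an ID protein known as a rapid target of BMP signalling. Its start ACS (Rn5 chr3:154619890-154620169, overlapping the gene start) held 1.90, 4.28 and 2.19 CPM in adults and 7.39, 6.42 and 6.19 CPM in P10. Every adult library was below every P10 library. The ACS fell by 1.25 on the log2 scale (approximate SE 0.31, edgeR adjusted p = 0.0102) and kept its call whichever of the 6 libraries was left out.

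A second Id1 ACS lies 3.20 kb downstream of the start, past the end of this short gene (chr3:154623098-154623423). It held 4.43, 3.99 and 5.03 CPM in adults and 12.4, 10.2 and 9.04 CPM in P10, again without overlap. This was the smallest adjusted p among the ID ACS that were Down, with a fall of 1.24 (SE 0.26, edgeR adjusted p = 0.00187) that was called in all 6 fits with a library left out. The third Down ACS, 26.9 kb upstream, held 7.50, 5.84 and 4.77 CPM against 11.8, 9.41 and 9.57 CPM. It fell by 0.75 (SE 0.25, edgeR adjusted p = 0.0571), and without Adult replicate 6 the value was -0.62 and no longer called. The most accessible Id1 ACS, 1.27 kb upstream, held 26.0, 18.1 and 17.0 CPM in adults and 25.4, 24.6 and 21.0 CPM in P10. Its groups overlapped, and its log2 fold change of -0.21 was not called, with an interval of 95% from -0.62 to 0.19. The remaining 3 Id1 ACS were not called and had values of -0.44, -0.42 and -0.25. All 7 Id1 ACS thus had negative values, where the median over the ACS of chromosome 3 was -0.17 and that over all ACS -0.01.

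Id3 encodes a close relative of Id1 that shares its E protein partners. Its start ACS (chr5:158263012-158263582) held 14.1, 10.4 and 10.6 CPM in adults and 17.8, 17.4 and 18.6 CPM in P10. The groups did not overlap, and the P10 libraries lay close together. The ACS fell by 0.61 (SE 0.21, edgeR adjusted p = 0.0668) and was called in all 6 fits with a library left out. A weaker Id3 ACS 26.9 kb downstream held 1.99, 2.34 and 2.71 CPM in adults and 4.46, 4.64 and 2.96 CPM in P10. It fell by 0.78 (SE 0.33, edgeR adjusted p = 0.156), but this call was made in 2 of the 6 fits with a library left out and was lost without Adult replicate 4 (-0.67), Adult replicate 5 (-0.79), P10 replicate 1 (-0.70) or P10 replicate 2 (-0.69). It was also not called by limma voom, with a value of -0.75. The other 4 Id3 ACS were not called, with values from -0.52 to 0.46.

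Id4, which is known to act partly against the other ID proteins, had a TSS-class pair. The ACS over its start (chr17:18746630-18747146) held 7.32, 6.04 and 6.32 CPM in adults and 9.71, 9.70 and 10.3 CPM in P10, without overlap. It fell by 0.59 (SE 0.24, edgeR adjusted p = 0.131), and the call was lost without Adult replicate 5 (-0.53), Adult replicate 6 (-0.57), P10 replicate 2 (-0.63) or P10 replicate 3 (-0.58). The neighbouring ACS, centred 0.537 kb upstream, held 20.6, 22.4 and 23.6 CPM in adults and 24.0, 29.0 and 25.1 CPM in P10. These groups also did not overlap, but the log2 fold change of -0.23 was not called, with an interval from -0.60 to 0.14.

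Id2 stood apart in level. Its start ACS (chr6:53086002-53086649) was the most accessible ID promoter, with 60.3, 56.8 and 54.4 CPM in adults and 48.2, 48.4 and 44.5 CPM in P10. Every adult library was above every P10 library, in the opposite order to the start ACS of Id1, Id3 and Id4. The log2 fold change of 0.28 (SE 0.15, interval from -0.03 to 0.59) was not called, with an edgeR adjusted p of 0.299, and took the value -0.56 when libraries were scaled by total reads.

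Of the 7 TSS-class ACS of the MYC and MAX genes, 0 were called, against 2.73% Up and 7.87% Down of all TSS-class ACS. With so few ACS, a count of 0 lies near that share. The same count held at an unadjusted p under 0.05 in edgeR and by DESeq2 and limma voom. The Myc promoter (chr7:103156802-103157938) held 47.4, 39.9 and 37.5 CPM in adults and 38.1, 40.1 and 34.3 CPM in P10. The groups overlapped, and the interval of the log2 fold change of 0.15 ran from -0.19 to 0.49. Max encodes the partner that MYC proteins need for binding DNA. Its promoter ACS, 1002 bp wide, had the highest mean CPM of the 147 ACS, which takes no account of width. It held 73.9, 64.0 and 54.3 CPM in adults and 69.0, 64.3 and 65.1 CPM in P10. Its log2 fold change was -0.04, with an interval from -0.36 to 0.27. The 3 Mycn promoter ACS had values of 0.18, 0.31 and -0.01, and the 2 Mycl promoter ACS values of -0.38 and -0.31. At 1 of these 5, the ACS over the Mycn start (chr6:51353467-51354134), the groups did not overlap, with 17.6, 15.3 and 18.7 CPM in adults and 13.6, 12.8 and 15.2 CPM in P10. Groups did not overlap at 20.8% of all TSS-class ACS. The signs at the Myc promoter and at the 2 Mycn ACS with positive values turned under scaling by total reads, to -0.68, -0.67 and -0.53.

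**Figure D2:**
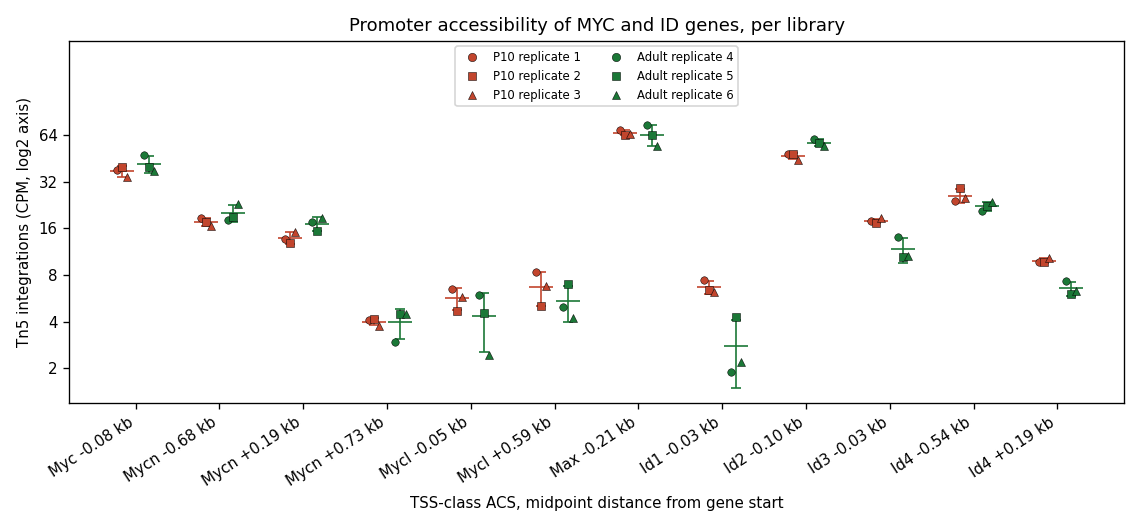
CPM (log2 axis) of the 12 TSS-class ACS in each library, labelled by gene and by the distance of the midpoint from the gene start; points are libraries, horizontal bars are group means and error bars SDs (n = 3 per group). The start ACS of Id1, Id3 and Id4 lie lower in the 3 adult libraries than in the 3 P10 libraries, that of Id2 lies higher in adults without a call, and Max and Id2 have the highest promoters.

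The listed neighbours of Myc, A1bg and Adcy8, are 2432 kb apart, the widest such space around any of the 8 genes. Only genes with a symbol and a listed ACS count as neighbours here, so other genes can lie between them. Of the 53 ACS of Myc, 49 were DISTAL. These ran from 142 kb upstream to 1138 kb downstream. Of the DISTAL ACS of Myc, 9 were Up and 3 were Down, or 18.4% and 6.12%, against 13.8% and 6.45% over all DISTAL ACS, and their median of -0.01 was close to the 0.02 of that class. Calls in both directions thus occurred across the locus.

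The largest rise was 68.3 kb downstream of the Myc start (chr7:103225604-103225883). This ACS held 17.6, 11.6 and 12.4 CPM in adults and 2.88, 6.21 and 4.44 CPM in P10, so every adult library was above every P10 library. It rose by 1.64 (SE 0.27, edgeR adjusted p = 0.000199), the smallest adjusted p of the 147 ACS, and was the only Up ACS of the 21 still called under scaling by total reads. Farther downstream, ACS at 109 kb and 141 kb had adult means of 22.7 ± 3.47 and 24.9 ± 6.12 CPM against P10 means of 12.4 ± 3.32 and 13.0 ± 1.50 CPM (SD, n = 3). They rose by 0.88 and 0.93 (edgeR adjusted p = 0.00913 and 0.00422). These 3 Up ACS lie in a stretch without another called ACS, with gaps of 40.0 kb and 31.5 kb between them. The ACS in the first gap had values of -0.58, -0.87 and -0.55, and the one in the second gap 0.26, so the stretch did not rise as a whole.

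A pair of Up ACS lay 370 kb and 373 kb downstream, 2.50 kb apart. The nearer one held 22.0, 15.97 and 20.2 CPM in adults and 7.95, 12.0 and 8.25 CPM in P10, and the other 16.9, 16.1 and 17.0 CPM against 6.09, 9.34 and 8.72 CPM. Neither pair of groups overlapped, and both rose by 1.05 (edgeR adjusted p = 0.00247 and 0.00256). Beyond them, the ACS at 590 kb rose by 1.30, from a P10 mean of 3.25 ± 1.09 to an adult mean of 8.09 ± 1.42 CPM, and the ACS at 647 kb by 1.56, from 1.79 ± 0.133 to 5.37 ± 2.34 CPM (edgeR adjusted p = 0.00383 and 0.00328). The Up ACS at 907 kb, with means of 3.86 and 2.16 CPM in adults and P10, was called in 3 of 6 fits and lost without Adult replicate 4 (0.82), Adult replicate 5 (0.70) or P10 replicate 3 (0.71). The other Up ACS of Myc named here were called in all 6.

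Upstream of Myc, opposite calls were neighbours. The ACS 142 kb upstream held 7.77, 4.77 and 10.2 CPM in adults and 4.14, 3.00 and 3.81 CPM in P10, and rose by 1.03 (SE 0.29, edgeR adjusted p = 0.0242). An ACS 2.19 kb away from it, centred 140 kb upstream, held 1.36, 0.876 and 2.06 CPM in adults and 2.05, 2.85 and 2.80 CPM in P10. It fell by 0.86 with overlapping groups and an edgeR adjusted p of 0.198, at the edge of the limit, and was not called by DESeq2. It was also lost without Adult replicate 4 (-0.84), Adult replicate 5 (-0.60), P10 replicate 2 (-0.80) or P10 replicate 3 (-0.80).

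The other Down ACS of Myc lay between Up ACS, at 237 kb and 294 kb downstream. The ACS at 294 kb was among the weakest, with 0.361, 1.27 and 0.645 CPM in adults and 2.05, 1.85 and 2.27 CPM in P10, from 4, 13 and 5 counts against 44, 26 and 43. It fell by 1.43 (SE 0.45, edgeR adjusted p = 0.0449), the largest fall of the 147 ACS, and was lost without Adult replicate 4 (-1.06). The ACS at 237 kb fell by 0.85 with overlapping groups (edgeR adjusted p = 0.118) and was lost without Adult replicate 4 (-0.62), Adult replicate 5 (-0.70), P10 replicate 2 (-0.70) or P10 replicate 3 (-0.77). The most accessible Myc ACS was not the promoter but a site 968 kb downstream, with 54.0, 37.4 and 55.0 CPM in adults and 54.6, 45.6 and 55.5 CPM in P10. It was not called, with a log2 fold change of -0.09 and an interval from -0.44 to 0.26.

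**Figure D3:**
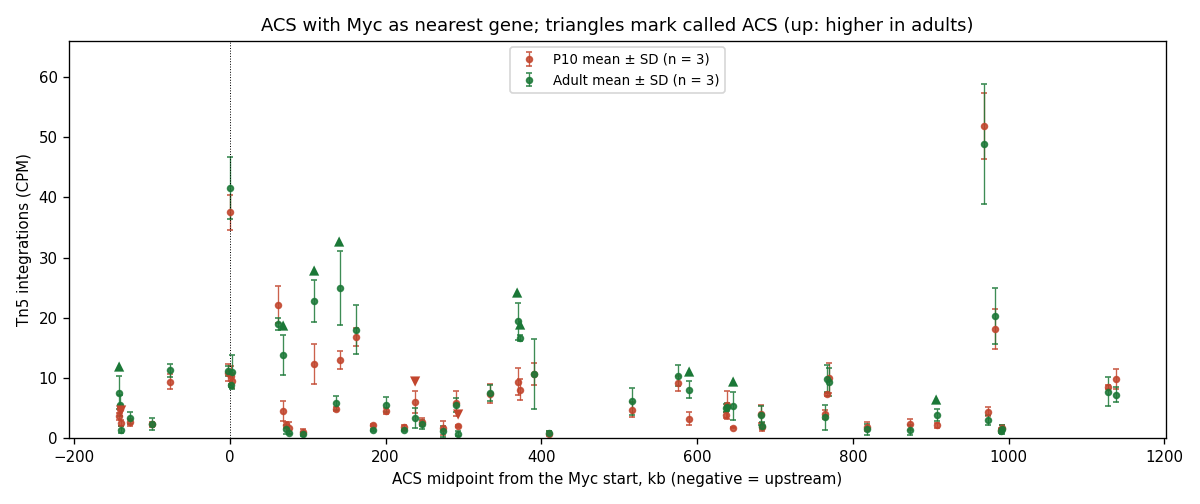
Mean CPM of the 53 Myc ACS in adults and P10 by distance of the midpoint from the Myc start in kb, with SDs (n = 3 per group); upward triangles mark the 9 Up ACS and downward triangles the 3 Down ACS. The promoter and the site 968 kb downstream are the highest in both groups and were not called, while the Up ACS rise from P10 means of at most 13.0 CPM.

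Mycn, the MYC gene best known from developing tissue, had 3 Up and 1 Down of 22 ACS, and these called ACS were all DISTAL. They made up 16.7% and 5.56% of the DISTAL ACS of Mycn, near the 13.8% and 6.45% over all DISTAL ACS. The ACS 95.2 kb downstream (chr6:51258606-51259082) held 14.3, 7.30 and 11.5 CPM in adults and 4.69, 3.99 and 5.39 CPM in P10, without overlap. It rose by 1.23 (SE 0.27, edgeR adjusted p = 0.00317) and was called in all 6 fits with a library left out. At 143 kb downstream, 47.1 kb farther on, an ACS held 4.25, 3.21 and 3.48 CPM in adults against 7.72, 8.20 and 5.02 CPM in P10. It fell by 0.93 (SE 0.29, edgeR adjusted p = 0.0405), also in all 6 such fits.

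Between these opposite calls lay the most accessible Mycn ACS, 124 kb downstream, with 62.7, 44.1 and 67.2 CPM in adults and 68.7, 72.1 and 63.0 CPM in P10. Its groups overlapped and its value of -0.23 was not called. The Up ACS 62.4 kb downstream and 22.8 kb upstream were less stable. The first, at 0.60, was lost without Adult replicate 5 (0.59), Adult replicate 6 (0.55), P10 replicate 1 (0.51) or P10 replicate 2 (0.45). The second, at 0.71, was kept only without Adult replicate 4 and otherwise lay between 0.63 and 0.81 without a call. Both took negative values under scaling by total reads.

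Mycl and Max had no called ACS among 5 and 9, where 12.3% of all ACS were Up and 6.63% Down. At an unadjusted p under 0.05, edgeR also gave 0 for both, as did DESeq2 and limma voom. The most accessible Mycl ACS, 0.764 kb upstream of its start, held 13.6, 13.6 and 11.6 CPM in adults and 16.7, 16.8 and 16.3 CPM in P10. Its groups did not overlap, and its value of -0.36 (interval from -0.78 to 0.06) was called Down, at -0.45, when column sums were used without TMM factors, and at -1.19 when libraries were scaled by total reads, and under no other alternative. At Max, the ACS with the largest log2 fold change, 38.3 kb downstream of the start, held under 3 CPM in every library and had a value of -0.87 with an interval from -1.77 to 0.03. It was called Down without Adult replicate 5 (-1.19) or under scaling by total reads (-1.68).

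Around Id2, 9 of 22 ACS were called in both directions, 6 Up and 3 Down. All 9 were DISTAL, where 31.6% of the Id2 ACS were Up and 15.8% Down, against 13.8% and 6.45% over all DISTAL ACS. The strongest rise was 84.9 kb upstream (chr6:53170958-53171265), with 14.3, 18.0 and 13.3 CPM in adults and 6.04, 6.78 and 7.88 CPM in P10. The groups did not overlap, and the ACS rose by 1.14 (SE 0.23, edgeR adjusted p = 0.00144). The ACS 37.7 kb downstream held 13.0, 12.2 and 15.5 CPM against 7.07, 6.99 and 7.88 CPM, and rose by 0.89 (SE 0.23, edgeR adjusted p = 0.0114). The ACS 13.6 kb upstream rose by 0.98, from a P10 mean of 2.75 ± 0.322 to an adult mean of 5.44 ± 0.968 CPM (edgeR adjusted p = 0.0350). These 3 were called in all 6 fits with a library left out.

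The Up ACS of Id2 at 374 kb and 174 kb upstream and 54.9 kb downstream had smaller values of 0.44, 0.66 and 0.54 (edgeR adjusted p = 0.169, 0.154 and 0.174). None of the 3 overlapped between groups. They turned negative under scaling by total reads and were called in 3, 2 and 2 of the 6 fits with a library left out. All 3 were lost without Adult replicate 4 (0.32, 0.70 and 0.56) or P10 replicate 2 (0.37, 0.49 and 0.35). The first was also lost without P10 replicate 1 (0.38), and the others without Adult replicate 6 (0.52 and 0.45) or P10 replicate 3 (0.72 and 0.56).

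Of the Down ACS of Id2, the one 495 kb upstream held 3.61, 2.63 and 4.25 CPM in adults and 6.23, 4.99 and 6.61 CPM in P10. It fell by 0.78 without overlap (SE 0.29, edgeR adjusted p = 0.101), and was lost without Adult replicate 5 (-0.61) or P10 replicate 3 (-0.71). The one 34.3 kb upstream fell from a P10 mean of 4.66 ± 1.89 to an adult mean of 2.30 ± 0.912 CPM with overlapping groups (edgeR adjusted p = 0.0840), and was lost without Adult replicate 4 (-0.76) or P10 replicate 2 (-0.66). The third, 28.8 kb downstream (chr6:53057082-53057695), did not separate by age. It held 0.542 CPM in Adult replicate 4 and 1.004 CPM in P10 replicate 3, but 4.19 and 4.12 CPM in the other adults and 11.1 and 11.2 CPM in the other P10 libraries. The call at -1.42 (SE 0.54, edgeR adjusted p = 0.108) was not made by DESeq2 or limma voom and was lost without Adult replicate 4 (-0.89), P10 replicate 1 (-1.05) or P10 replicate 2 (-1.09).

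**Figure D4:**
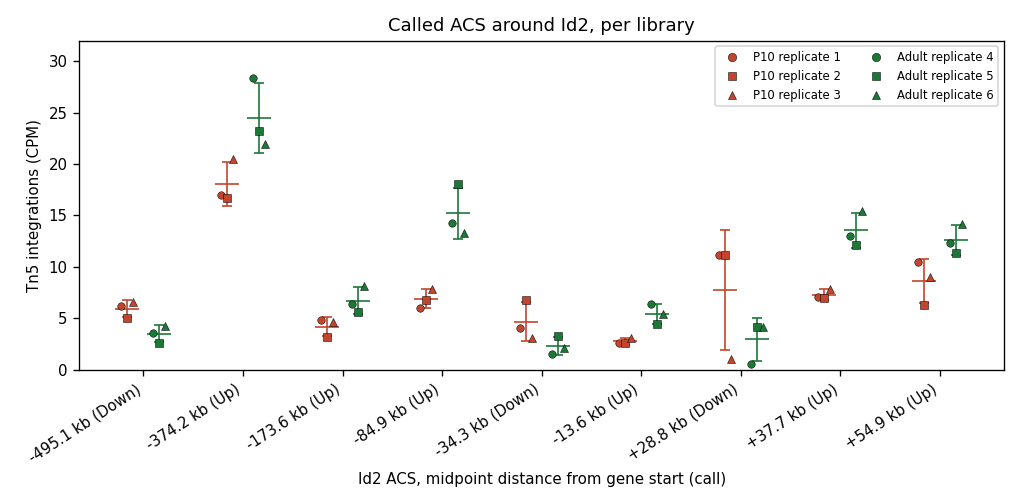
CPM of the 9 called Id2 ACS in each library, labelled by distance of the midpoint from the gene start and by call; points are libraries, horizontal bars group means and error bars SDs (n = 3 per group). At the ACS 28.8 kb downstream, Adult replicate 4 (0.542 CPM) and P10 replicate 3 (1.004 CPM) lie far below the other libraries of their groups.

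Around Id4, the 3 Up ACS were all upstream, at 193 kb, 110 kb and 33.9 kb, away from the start ACS that fell. These 3 made up 14.3% of the DISTAL ACS of Id4, near the 13.8% over all DISTAL ACS. The ACS 110 kb upstream (chr17:18856524-18856967) held 20.2, 10.3 and 11.1 CPM in adults and 9.81, 7.49 and 6.66 CPM in P10. The groups did not overlap, but Adult replicate 4 was far above the other adults. It rose by 0.80 (SE 0.26, edgeR adjusted p = 0.0488), and was lost without Adult replicate 4 (0.42) or P10 replicate 3 (0.66). The same library was highest at the ACS 193 kb upstream, with 14.3 CPM against 8.38 and 7.61 CPM in the other adults and 4.83, 5.92 and 7.30 CPM in P10. That ACS rose by 0.76 (SE 0.27, edgeR adjusted p = 0.0797), and was lost without Adult replicate 4 (0.41), P10 replicate 1 (0.60) or P10 replicate 2 (0.72). At 33.9 kb upstream, the most accessible Id4 ACS held 34.7, 22.8 and 28.7 CPM in adults and 21.2, 23.3 and 19.9 CPM in P10. Its groups overlapped, and its call at 0.42 (edgeR adjusted p = 0.185) was kept in 1 of the 6 fits with a library left out, that without Adult replicate 5, and was not made by DESeq2. Without Adult replicate 4 its value was 0.26, and the other 4 fits without a call gave 0.35 to 0.46. Under scaling by total reads these 3 ACS had values of -0.039, -0.056 and -0.42.

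To set the genes side by side, integrations were summed over all ACS of a gene and tested over 13834 genes, of which 10.5% were Up and 7.69% Down. Of the 8 genes, Id1 and Id3 were Down and 6 were not called. The share of gene sums without overlap was not computed over all genes, so overlap of the sums is given as a description. Summed over its 7 ACS, Id1 held 65.9, 54.3 and 49.5 CPM in adults and 94.0, 75.0 and 72.7 CPM in P10, without overlap. The sum fell by 0.51 (SE 0.13, edgeR adjusted p = 0.0331) and was called in all 6 fits with a library left out. Id3 held 35.7, 33.1 and 29.0 CPM in adults and 43.6, 46.4 and 38.6 CPM in P10, also without overlap. It fell by 0.39 (SE 0.14, edgeR adjusted p = 0.107), and the call was lost without Adult replicate 6 (-0.32) or P10 replicate 2 (-0.33).

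The sum of Id2 went the other way without a call, with 231, 239 and 255 CPM in adults and 202, 211 and 203 CPM in P10. Its groups did not overlap, and its log2 fold change was 0.23 (SE 0.11, edgeR adjusted p = 0.232). DESeq2 called it Up at 0.24, and scaling by total reads gave -0.61. The other sums overlapped between groups, with values of 0.20 for Myc, 0.06 for Mycn, -0.23 for Mycl, 0.02 for Max and 0.14 for Id4. Scaling by total reads turned Myc, Mycn, Max and Id4 negative, and column sums turned Mycn and Max, at -0.029 and -0.067.

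**Figure D5:**
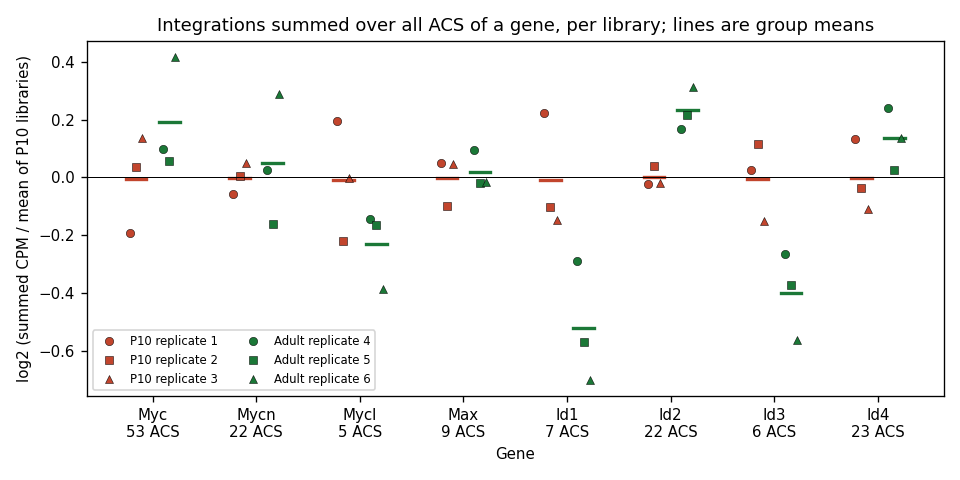
Log2 of the summed CPM of each gene in each library over the mean of the P10 libraries; points are libraries and lines group means. The adult points of Id1 and Id3 lie below all P10 points of the gene, those of Id2 lie above them, and the groups of the other 5 genes overlap. The share without overlap over all genes was not computed.

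The balance between promoter and other ACS was compared within each library, as the log2 ratio of integrations outside the TSS class to those inside it, which does not depend on library size. With 3 against 3 libraries, an exact two-sided permutation test has 10 splits and cannot give a p under 0.1. Id4 had ratios of 2.80, 2.38 and 2.39 in adults and 2.32, 1.77 and 1.79 in P10, so every adult library was above every P10 library. The difference of 0.56 reached the smallest p possible (exact permutation p = 0.1), with 8 genes compared and no adjustment for that number. No share over all genes was computed for this ratio. Over all ACS, the median log2 fold change was -0.10 for the TSS class and 0.02 for the DISTAL class. In the same terms, TSS-class ACS took 14.9% ± 2.04 of the Id4 integrations in adults and 20.6% ± 3.37 in P10 (SD, n = 3). The difference was 0.89 for Id1 and 0.42 for Id3 (exact permutation p = 0.2 for both), and their groups overlapped. For Id1 it was 0.48 without Adult replicate 4, and for Id3 it was 0.18 without P10 replicate 3. For Myc, Mycn, Mycl, Max and Id2 the differences lay between -0.19 and 0.21 (exact permutation p from 0.2 to 0.6), and between -0.27 and 0.39 with a library left out. The sign for Myc rested on single libraries, since its difference of 0.06 was -0.11 without Adult replicate 6 and -0.02 without P10 replicate 1.

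Marker promoters of other cell types were measured beside the falls at Id1 and Id3. Summed over the TSS-class ACS of 5 of 8 duct marker genes, adults held 35.0 to 39.0 CPM and P10 44.4 to 50.5 CPM, without overlap. The acinar list had such an ACS at 1 of 10 genes, with 0.813 to 2.05 CPM in adults and 2.48 to 3.35 CPM in P10. The endothelial list (3 of 10 genes) held 25.8 to 34.3 CPM against 32.2 to 40.0 CPM, and the mesenchymal list (5 of 10 genes) 28.4 to 34.3 CPM against 31.1 to 36.0 CPM, both with overlap. The promoters of the islet endocrine list (8 of 10 genes) also held less in adults, with 175 to 242 CPM against 223 to 358 CPM and with overlap. The median of all TSS-class ACS was -0.10. Over all its ACS the duct list had 6 Up and 8 Down of 53, and its TSS-class ACS 1 Up and 3 Down of 6. A DISTAL ACS of the duct gene Cftr rose by 1.82, from 11.6 ± 2.49 to 41.2 ± 9.28 CPM (edgeR adjusted p = 1.49e-06), and the median of the duct gene sums was 0.14. The endothelial list had 12 Up and 5 Down of 80 ACS, the mesenchymal list 12 and 6 of 76, the acinar list 1 and 5 of 19, the immune list 1 and 2 of 16, and the islet endocrine list 9 and 14 of 88. The part of these cell types in the Id1 and Id3 results was not tested.

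Genes that work with MYC and ID proteins were counted in lists by their ACS, against a background of 12.3% Up and 6.63% Down. The MXD and MLX network holds rivals of MYC for MAX, and also MLX, a relative of MAX. It had ACS at 6 of 9 genes, with 1 Up and 1 Down of 29. The Down ACS, 7.41 kb from the start of the repressor Mnt, had means of 35.9 ± 7.72 CPM in adults and 53.5 ± 10.3 CPM in P10 (SD, n = 3). It fell by 0.57 (edgeR adjusted p = 0.0451). MYC cofactors and turnover factors had ACS at 7 of 12 genes, with 2 Up and 3 Down of 24. Both Up ACS were upstream of Bin1, an inhibitor of MYC, and the one with the smaller p, 34.7 kb away, had 36.4 ± 2.55 CPM in adults and 14.4 ± 2.82 CPM in P10. It rose by 1.33 (edgeR adjusted p = 2.86e-05), and the other, 41.0 kb away, by 1.36. Of the Down ACS, those with the smallest p were DISTAL to Wdr5 and Ruvbl1 and fell by 1.79 and 1.28 (edgeR adjusted p = 0.0282 and 0.0331). Both were weak, with adult means of 0.537 and 1.67 CPM and P10 means of 1.81 and 4.15 CPM.

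Known MYC target genes had ACS at 15 of 16 genes, with 6 Up and 1 Down of 60 and a median of -0.10. Odc1, which makes polyamines and is a classic MYC target, supplied 3 of the 4 with the smallest p. The strongest of these, 39.9 kb upstream, had 31.4 ± 0.775 CPM in adults and 10.4 ± 2.95 CPM in P10, and rose by 1.59 (edgeR adjusted p = 9.85e-06).

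E proteins, the direct partners of ID proteins, had 13 Up and 1 Down of 49 ACS over 3 genes, or a median of 0.22. Their 2 TSS-class ACS had a median of -0.23 and 0 calls. The sums of the 3 genes had a median of -0.04, with 1 Up and 0 Down. The 4 ACS with the smallest p were all DISTAL to Tcf4, the first with 13.9 ± 2.72 CPM in adults and 4.90 ± 0.680 CPM in P10, a rise of 1.50 (edgeR adjusted p = 0.000155). The list of bHLH genes held tissue-specific ones such as Neurod1 and Ptf1a, and also Hes1 and Hey1. It was thus not limited to tissue-specific partners of E proteins. The list had ACS at 6 of 8 genes, with 16 Up and 4 Down of 123 and a median of 0.13. The first of these, DISTAL to the acinar and progenitor factor Ptf1a, rose by 2.43, from 1.72 ± 0.251 to 9.36 ± 0.768 CPM (edgeR adjusted p = 2.56e-06). The BMP pathway, which switches ID genes on, had ACS at 13 of 14 genes, with 24 Up and 13 Down of 179 and a median of 0.11. The 4 with the smallest p were all DISTAL and Up, at the inhibitor Smad7 and at the activating ligands Bmp6 and Bmp2. The Smad7 ACS rose by 1.62, from 3.37 ± 1.87 to 10.6 ± 3.78 CPM, and by 1.05 (edgeR adjusted p = 0.00151 and 0.00355). The Bmp6 ACS rose by 1.17, from 9.10 ± 0.757 to 20.5 ± 7.18 CPM (edgeR adjusted p = 0.00172). The Bmp2 ACS rose by 1.62, from 1.23 ± 0.286 to 3.76 ± 0.390 CPM (edgeR adjusted p = 0.00361).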

How the data were processed

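ATAC-seq reads of 3 Adult and 3 P10 libraries were aligned by the authors to Rn5 with BWA 0.7.13 and filtered at a mapping quality of 30 and for mitochondrial reads, and ACS were called with MACS2 2.1.1 on the concatenated samples of each age and merged. Whether PCR duplicates were removed is not given in the sources used here. The deposited table gives whole-number counts, not normalized, of the Tn5 integrations that each library had in each ACS, with the nearest gene. The authors also deposited log2 fold changes, mean log2 CPM, F scores and p-values with their FDR from their own comparison, in 5 columns that were not used.

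Of 101941 listings, 338 repeats were dropped. Counts were scaled by TMM and tested with edgeR 4.0.16 in R 4.3.3 (glmQLFit, glmQLFTest) with age as the only term, over all ACS and, summed, over genes. Approximate SEs were taken as the absolute log2 fold change over the square root of F, and intervals are at 95%. P-values measure the spread among these libraries. Replicates differed by 3.35 to 7.81 times the counting variance (chi-square per degree of freedom). On simulated counts for this comparison over 101603 ACS, 43% of 200 ACS changed by 1 on the log2 scale were recovered, with 35 false calls, and 0 calls without change. In the data, 12504 ACS were Up and 6738 Down. With so few changed ACS, the adjusted p limit was stricter in the simulation. It therefore gives no recovery or error rate for the calls reported here. Alternatives were other library sizes, filterByExpr, DESeq2 1.42.0, limma voom 3.58.1, an FDR under 0.05 and each library left out.

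Named ACS are all called ACS, all TSS-class ACS and, per gene, the ACS with the highest mean CPM and the largest log2 fold change; lists give at most 4 called ACS by smallest p. The genes and lists were chosen with earlier results of these data known. Distances run from gene start to ACS midpoint.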

Additional observations from a re-analysis of the deposited data

How the results depend on the processing

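No paired analysis was possible because the Adult and P10 groups share no replicate numbers. With total reads as library sizes, 98 of the 147 ACS were Down and 1 was Up (1062 Up and 61663 Down over all ACS), and all 8 gene sums were Down. Values that turned negative there were -0.68 at the Myc promoter, -0.67 and -0.53 at 2 Mycn promoter ACS, -0.12 and -0.22 at the Mycn ACS 22.8 kb upstream and 62.4 kb downstream, -0.56 at the Id2 promoter, -0.38, -0.19 and -0.33 at the Id2 ACS 374 kb and 174 kb upstream and 54.9 kb downstream, -0.039, -0.056 and -0.42 at the 3 Up ACS of Id4, and -0.63, -0.78, -0.82, -0.61 and -0.71 for the sums of Myc, Mycn, Max, Id2 and Id4. Column sums without TMM gave 10732 Down over all ACS, against 6738, and -0.029 and -0.067 for the sums of Mycn and Max. An FDR under 0.05 left 13 Up and 4 Down of these ACS, 7177 Up and 1945 Down over all ACS, and 1 gene sum. Under filterByExpr and median-of-ratios factors the same 34 ACS were called. The cause of these differences was not tested.

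With 1 library left out, 14 to 21 of these ACS were Up and 7 to 12 Down, 7973 to 13232 Up and 3285 to 7215 Down over all ACS, and 1 to 2 gene sums were called. Of the 21 Up and 13 Down ACS, 12 and 4 were called in all 6 such fits. Sign changes there touched values near 0. The Myc ACS 968 kb downstream ran from -0.19 to 0.071, the Mycn promoter ACS inside the gene from -0.11 to 0.17, the Max promoter from -0.16 to 0.060, the sums of Mycn and Max from -0.065 to 0.16 and from -0.026 to 0.044, and the Myc ratio of other to TSS-class integrations from -0.11 to 0.18. Depth limits the weakest ACS, whose mean count over the 6 libraries was 10.8.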

Other observations

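The spread within groups was looked at after the data had been seen, with no test. At the Id2 ACS 28.8 kb downstream, the highest adult library was 7.72 times the lowest and the highest P10 library 11.1 times the lowest. Of 68009 ACS with a mean of at least 3 CPM, 20 (0.0294%) had at least a 4-fold spread within both groups, and of the 115 ACS of these genes at that level this was 1. In 2 of those 20, Adult replicate 4 and P10 replicate 3 were the lowest of their groups.

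By Pearson's r of summed log2 CPM over the 6 libraries, among 8422 genes with at least 3 ACS, the genes most alike were Asb13 (0.996) and Pde4b (0.996) for Myc, Dpt (0.984) and Erich6 (0.982) for Mycn, Fgfr4 (0.993) and Stat5a (0.981) for Mycl, and Kcnip3 (0.970) and Stk25 (0.955) for Max. They were Dapk2 (0.986) and Tob1 (0.983) for Id1, LOC100909538 (0.992) and Bphl (0.992) for Id2, Slc29a1 (0.991) and Prkcz (0.989) for Id3, and Hebp2 (0.990) and Dscam (0.978) for Id4. The libraries are shared by all genes, and the highest of 8422 values over 6 libraries is a description only.

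Promoters of proliferation genes, measured for comparison with Myc, held 243 to 262 CPM in adults and 251 to 285 CPM in P10 over the TSS-class ACS of 9 of 10 genes, with overlap. Of these 9 ACS, 2 were Down, against 7.87% of all TSS-class ACS. One was at Aurkb, a mitotic kinase, with means of 3.63 ± 0.694 CPM in adults and 7.27 ± 1.36 CPM in P10 (SD, n = 3), a fall of 0.99 (edgeR adjusted p = 0.0246).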
